A study of Mus musculus with 12 samples.

Results

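The HoxA genes are the homeobox genes of the HoxA cluster on mouse chromosome 6, and 9 of them (Hoxa2, Hoxa3, Hoxa4, Hoxa5, Hoxa6, Hoxa7, Hoxa9, Hoxa10 and Hoxa11) were followed across cells cultured from 3 tissues. Every array entry that the platform annotation assigns to 1 of these symbols was taken, whatever its signal. This gave 16 entries under 11 probe identifiers, of 45281 entries under 35746 identifiers in the whole table. Some identifiers are listed more than once with different signals, and each listing is called an entry and numbered in file order. The cells were mouse bone marrow mesenchymal stem cells (MSC), named classical in the labels, and cells from heart and from kidney that the labels describe as MSC-like and resembling the bone marrow cells. Each tissue had 4 arrays, called biological replicates in the series design, which compares the 3 tissues. The labels say nothing of strain, age, passage, culture or the animals behind each replicate, and the p-values therefore speak only for the spread among these 12 samples. No treatment or genetic change is named for any group.

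Hox proteins are transcription factors that give cells of the embryo a position along the head-to-tail axis. Genes at the start of a Hox cluster act in anterior structures such as the hindbrain and neck, and genes at its end act in posterior structures such as the lower trunk, limbs and urogenital tract. Fibroblasts and stromal cells of adult tissues keep regional Hox patterns in culture, and Hox proteins bind DNA together with cofactors of the Pbx, Meis and Pknox families.

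Each array reports 1 fluorescence signal per entry, with a detection fraction that approaches 1 for bright probes. An entry counted as detected above a detection fraction of 0.95, and 18635 to 19792 entries were detected per array. Bone marrow replicate 1 had the dimmest array, with a mean raw signal of 753.7 against 874.4 to 1066 on the other 11, and bone marrow replicates correlated at 0.983 to 0.9931 against 0.9916 or more within heart and within kidney. Leaving out bone marrow replicate 1 changed none of the HoxA calls below. Of the MSC and fibroblast markers, all 10 with an entry were detected throughout the heart arrays and 9 throughout the bone marrow and the kidney arrays, the exception being Nt5e, detected on 0 bone marrow arrays and 1 kidney array. The summed raw signal of these markers ranged from 33097 to 66722 for bone marrow, from 75234 to 86353 for heart and from 54380 to 57812 for kidney. Thy1 alone read 4846 to 8610, 27464 to 30660 and 4777 to 5472 in these tissues. Of the 10, 4 were higher and 2 lower in heart minus bone marrow, where 26.2% and 29.4% of 10797 genes were. In kidney minus bone marrow 1 was higher and 2 lower (19.6% and 23.8%), and in kidney minus heart 2 and 4 (24.5% and 23.9%). Pdgfra was lower in kidney than in bone marrow cells (-2.15 ± 0.17, adjusted p = 2.07e-09) and Thy1 higher in heart than in bone marrow cells (1.86 ± 0.08, adjusted p = 3.95e-14). The marker lists of other cell types were mixed. Of blood, macrophage and endothelial markers, Ptprc, Itgam, Adgre1, Tyrobp, Kdr and Vwf were detected on 0 of 12 arrays. Ly6c1, Cd3e, Csf1r and Mrc1 were detected on all 12. For endothelial Tek the number of arrays was 3 in heart, 2 in bone marrow and 0 in kidney cells. Tek was lower in kidney than in heart cells (-0.97 ± 0.22, adjusted p = 0.00132), its only call. Endothelial Pecam1, Cdh5 and Tie1 were too rarely detected to be tested. Csf1r was higher in heart than in bone marrow cells (0.77 ± 0.20, adjusted p = 0.00307) and lower in kidney than in heart cells (-0.56 ± 0.20, adjusted p = 0.0286). Mrc1 passed in no comparison. Of heart muscle and kidney markers, Myh6, Myl7, Epcam, Six2, Pax2 and Pax8 were detected on 0 arrays, Cdh1 on 11, and Lrp2 on every heart and kidney array but on 0 from bone marrow. Osr1, a gene of kidney progenitors and other embryonic mesenchyme, was detected on all 12 arrays and was higher in heart than in bone marrow cells (1.52 ± 0.15, adjusted p = 2.04e-08) and lower in kidney than in bone marrow cells (-1.37 ± 0.15, adjusted p = 1.71e-07) and than in heart cells (-2.89 ± 0.15, adjusted p = 1.15e-12). The summed raw signal of the blood list (5 genes with an entry) ranged from 4618 to 8780 for bone marrow, from 4361 to 5354 for heart and from 1931 to 2160 for kidney, and the summed renal epithelial list (7 genes) was 865.6 to 944.8, 1058 to 1096 and 1130 to 1193. Ly6c1 made up most of the blood sum (4085 to 8236 of it in bone marrow and 1090 to 1347 in kidney cells), while Cd3e went the other way (kidney minus bone marrow 1.69 ± 0.15, adjusted p = 1.37e-08). The list of renal stroma and nephron progenitors (5 genes) summed to 731.2 to 970.5 in bone marrow, 1326 to 1586 in heart and 724.6 to 774.1 in kidney cells. The part of these markers in the HoxA differences was not tested. In bulk RNA, fewer cells expressing a gene and less of its RNA per cell cannot be told apart.

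Promoter windows, running from 250 bases before to 50 bases after the start of each transcript, were taken from RefSeq (build GRCm38.p6) for 8 of the 9 genes. Of the tissue patterns described below, Hoxa2 and Hoxa5 share the same one, Hoxa7 and Hoxa9 have others, and those of Hoxa3 and Hoxa10 are not represented. The windows of Hoxa2, Hoxa5, Hoxa7 and Hoxa9 are shown as examples. They lie on the minus strand at chr6:52164782-52165081 (Hoxa2), chr6:52204538-52204837 (Hoxa5), chr6:52218524-52218823 (Hoxa7) and chr6:52227321-52227620 (Hoxa9). Capitals mark matches to any of the searched motifs.
Hoxa2: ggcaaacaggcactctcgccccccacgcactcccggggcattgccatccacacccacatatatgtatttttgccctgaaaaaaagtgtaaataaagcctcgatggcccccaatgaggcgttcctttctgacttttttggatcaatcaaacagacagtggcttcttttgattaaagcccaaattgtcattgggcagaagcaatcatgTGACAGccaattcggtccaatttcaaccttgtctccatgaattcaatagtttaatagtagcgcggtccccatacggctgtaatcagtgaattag
Hoxa5: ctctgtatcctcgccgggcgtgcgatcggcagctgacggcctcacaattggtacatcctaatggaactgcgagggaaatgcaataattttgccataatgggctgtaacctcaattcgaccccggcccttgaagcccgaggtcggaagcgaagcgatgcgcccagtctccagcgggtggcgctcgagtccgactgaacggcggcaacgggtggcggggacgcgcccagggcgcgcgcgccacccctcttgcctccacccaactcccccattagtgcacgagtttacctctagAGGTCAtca
Hoxa7: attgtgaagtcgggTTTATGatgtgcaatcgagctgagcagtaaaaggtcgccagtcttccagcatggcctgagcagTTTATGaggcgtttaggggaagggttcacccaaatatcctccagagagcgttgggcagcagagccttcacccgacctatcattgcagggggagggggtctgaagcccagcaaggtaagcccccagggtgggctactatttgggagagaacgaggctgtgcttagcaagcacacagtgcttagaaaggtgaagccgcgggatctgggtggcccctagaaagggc
Hoxa9: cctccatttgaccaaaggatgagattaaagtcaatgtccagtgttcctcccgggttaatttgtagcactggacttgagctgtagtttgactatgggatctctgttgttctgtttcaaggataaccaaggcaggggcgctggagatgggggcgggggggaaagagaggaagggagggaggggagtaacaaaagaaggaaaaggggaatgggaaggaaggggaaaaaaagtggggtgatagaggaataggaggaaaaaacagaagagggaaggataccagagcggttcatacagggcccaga
The motifs were searched on both strands, and no match in these genes overlapped another. They were TATAAA (a core promoter element), TTTATG (bound by Cdx proteins), AGGTCA (nuclear receptor half-site), TGACAG (bound by Meis proteins) and CACGTG (E-box, which reads the same on both strands). TGACAG was found in the windows of Hoxa2, 44 bases before the start, and Hoxa3, against 19.2% of all 32851 windows. AGGTCA was found in Hoxa5, 42 bases after the start, against 16.3% of all windows. TTTATG was found at 2 places in Hoxa7, 236 and 173 bases before the start, against 11.9% of all windows. TATAAA was found in 1 of the 2 Hoxa10 windows, against 13.6% of all windows, and CACGTG in none of the HoxA windows, against 7.15%. The Hoxa9 window, like those of Hoxa6 and Hoxa11, held none of these letters. The base composition differed between the 4 windows shown, with 45.7% G or C in Hoxa2, 61.7% in Hoxa5, 55.7% in Hoxa7 and 49.7% in Hoxa9, against a median of 52.7% over all windows. A match is a description of the letters and not a binding site.

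Of the 16 HoxA entries, 10 entries of 7 genes were detected on at least 4 arrays and so entered the test, against 45.6% of all entries, and 5 were detected on all 12 arrays, against 33.5%. The other 6 entries, which include the only entries of Hoxa6 and Hoxa11, were detected on 0 or 1 array and were not tested. All 10 tested entries differed between the 3 tissues in the F test of limma, where 62.9% of all 20649 tested entries did. An entry had to be detected somewhere to be tested, so these 10 are not the whole cluster. Hoxa13 belongs to the cluster but not to the listed genes. Both of its tested entries did not pass the F test (adjusted p = 0.0702 and 0.552).

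**Figure D1:**
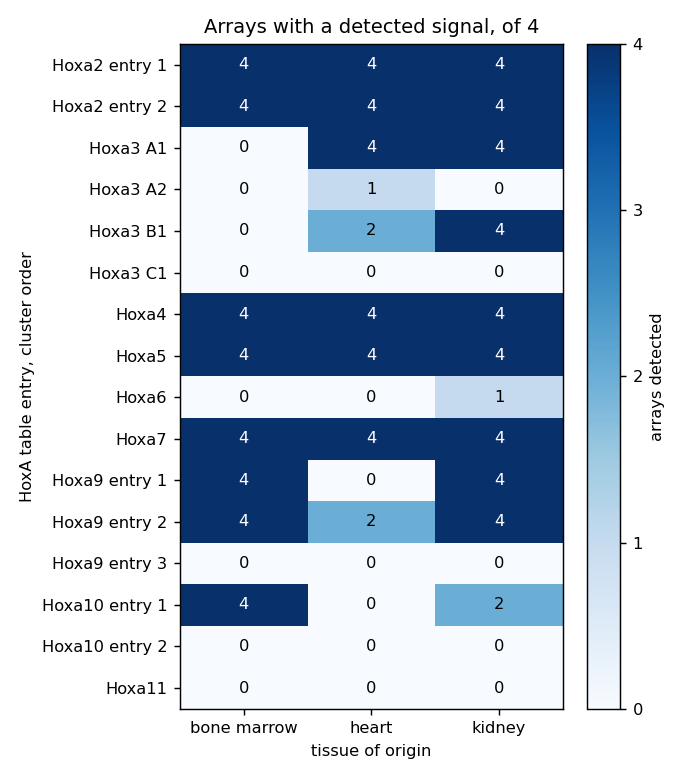
Number of arrays, of 4 per tissue, on which each of the 16 HoxA entries was detected, with the entries in cluster order from top to bottom and the tissues from left to right. Hoxa2, Hoxa4, Hoxa5 and Hoxa7 were detected on all 12 arrays, whereas the Hoxa3 entries were detected on 0 bone marrow arrays and entry 1 of Hoxa9 and of Hoxa10 on 0 heart arrays. The letters A, B and C stand for the Hoxa3 identifiers ILMN_1237475, ILMN_1255920 and ILMN_1258410.

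The genes at the start of the cluster, Hoxa2, Hoxa4 and Hoxa5, had their highest signal in heart cells, an intermediate signal in kidney cells and their lowest in bone marrow cells. Values by array are raw intensities, which are not scaled between arrays, and differences are log2 differences of normalized values with their standard errors (SE) and Benjamini-Hochberg adjusted p-values from limma. Hoxa2 patterns the hindbrain and the skeleton of the ear and face. Its entry 1 (identifier ILMN_2874270) read 156.8, 160.9, 156.0 and 166.2 in bone marrow, 662.4, 629.7, 606.0 and 865.9 in heart, and 446.0, 500.0, 468.7 and 480.9 in kidney cells. Its entry 2 read 178.7, 227.0, 205.8 and 246.4 in bone marrow, 1016.2, 805.6, 914.2 and 1104.8 in heart, and 616.3, 644.7, 636.4 and 639.4 in kidney cells. On both entries each tissue kept to a range of its own, with heart above kidney and kidney above bone marrow. The difference of heart minus bone marrow was 3.12 ± 0.14 on entry 1 (8.68-fold, adjusted p = 6.72e-14) and 2.70 ± 0.11 on entry 2 (6.5-fold, adjusted p = 2.48e-14). Kidney minus bone marrow was 2.41 ± 0.14 (adjusted p = 9.22e-12) and 1.95 ± 0.11 (adjusted p = 1.02e-11). Kidney cells were below heart cells by 0.71 and 0.75 on the log2 scale, with kidney minus heart at -0.71 ± 0.14 (adjusted p = 0.00022) and -0.75 ± 0.11 (adjusted p = 1.17e-05).

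Hoxa4 helps to pattern the neck vertebrae. It read 211.5, 178.0, 190.5 and 192.5 in bone marrow, 795.8, 648.5, 806.7 and 963.7 in heart, and 476.4, 649.8, 518.7 and 575.4 in kidney cells (identifier ILMN_2755860). The ranges of raw signal of heart and kidney met, with the lowest heart array at 648.5 and the highest kidney array at 649.8, and separated after normalization. The log2 mean was 6.68 ± 0.48 (SD, n = 4) for bone marrow, 9.37 ± 0.18 for heart and 8.67 ± 0.26 for kidney cells. Hoxa4 was 6.44-fold higher in heart than in bone marrow cells (2.69 ± 0.19, adjusted p = 1.28e-10) and 3.97-fold higher in kidney than in bone marrow cells (1.99 ± 0.19, adjusted p = 2.44e-08). Kidney minus heart was -0.70 ± 0.19 (adjusted p = 0.0042).

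Hoxa5 is known for its part in lung, diaphragm and neck vertebra development. Its signal (identifier ILMN_1217978) was 970.4, 1136.1, 1145.1 and 1200.7 in bone marrow, 9542.3, 9197.0, 9575.0 and 11321.9 in heart, and 6761.8, 5966.4, 6602.9 and 6058.5 in kidney cells. The 3 tissues lay far apart beside the spread of their arrays, with log2 means of 10.16 ± 0.12 (SD, n = 4) for bone marrow, 13.20 ± 0.06 for heart and 12.49 ± 0.06 for kidney cells. Hoxa5 was 8.23-fold higher in heart than in bone marrow cells (3.04 ± 0.07, adjusted p = 9.9e-18), and 5.05-fold higher in kidney than in bone marrow cells (adjusted p = 7.09e-16). Between the 2 organs it was 1.63-fold lower in kidney cells (-0.71 ± 0.07, adjusted p = 8.61e-08).

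Hoxa3, which acts in the thymus, parathyroid and neck, was detected in heart and kidney cells and on 0 bone marrow arrays, and its entries did not give a single pattern. Entry 1 of identifier ILMN_1237475 read 123.4, 122.1, 131.3 and 117.4 in bone marrow, 187.2, 216.1, 167.6 and 177.0 in heart, and 216.4, 205.8, 172.5 and 210.8 in kidney cells. Heart and kidney arrays overlapped, and all of them lay above the bone marrow arrays. Where an entry was undetected on all 4 arrays of a tissue, the fold is a lower bound, set against the mean over those arrays of the higher of the array's lowest detected signal and the entry's own value. On this bound the heart cells exceeded bone marrow cells at least 1.4-fold (fitted difference 1.21 ± 0.22, adjusted p = 8.05e-05) and the kidney cells exceeded them at least 1.64-fold (1.43 ± 0.22, adjusted p = 1.97e-05). Kidney minus heart was 0.22 ± 0.22 and did not pass (adjusted p = 0.444). Identifier ILMN_1255920 read 126.2, 148.5, 132.4 and 154.2 in bone marrow, 154.3, 154.6, 161.6 and 174.5 in heart, and 175.5, 187.4, 200.2 and 190.0 in kidney cells. It was detected on only 2 of the 4 heart arrays and on all 4 kidney arrays. On that identifier kidney stood above both other tissues, and after normalization heart and bone marrow overlapped. There Hoxa3 was at least 1.41-fold higher in kidney than in bone marrow cells (adjusted p = 0.00101) and 0.56 ± 0.18 higher than in heart cells (adjusted p = 0.0146), and heart minus bone marrow was 0.26 ± 0.18 (adjusted p = 0.252). Over the 12 arrays these entries correlated at 0.532, whereas both Hoxa2 entries correlated at 0.988 and the 2 tested Hoxa9 entries at 0.968. Entry 2 of ILMN_1237475 was detected on 1 heart array, and ILMN_1258410 on 0 arrays. In RefSeq the Hoxa3 locus overlaps Hoxa4, Hoxa5 and Hoxa6, and the transcript that each probe reads was not analysed here. The Hoxa3 signals therefore cannot be assigned to Hoxa3 transcripts alone. The same limit holds for the signals of Hoxa4, Hoxa5 and Hoxa6.

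The middle of the cluster behaved otherwise. Hoxa6, which acts in the trunk skeleton, read 113.2 to 133.8 for bone marrow, 122.0 to 137.3 for heart and 121.1 to 162.8 for kidney cells, and was detected on 1 kidney array. Hoxa7, a gene of the thoracic skeleton, had its highest signal in kidney cells. It read 895.0, 914.9, 887.4 and 985.4 in bone marrow, 909.9, 960.8, 971.2 and 1131.6 in heart, and 1940.8, 1609.1, 1565.1 and 1570.0 in kidney cells (identifier ILMN_2621038). All kidney arrays stood above all others, and bone marrow and heart arrays overlapped. Hoxa7 was 1.54-fold higher in kidney than in bone marrow cells (0.62 ± 0.11, adjusted p = 0.000106) and 1.68-fold higher than in heart cells (0.75 ± 0.11, adjusted p = 8.86e-06). Heart minus bone marrow was -0.13 ± 0.11 (adjusted p = 0.355).

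Among the genes at the end of the cluster, Hoxa9 was the gene with bone marrow and kidney cells high and heart cells low. Hoxa9 patterns the lower trunk and the limb and is expressed in blood stem and progenitor cells. Entry 1 (identifier ILMN_2772762) read 302.7, 390.1, 272.4 and 342.6 in bone marrow, 119.7, 124.6, 136.0 and 111.4 in heart, and 321.2, 388.0, 344.5 and 328.2 in kidney cells. Entry 2 read 283.1, 298.7, 250.6 and 338.1 in bone marrow, 177.5, 168.2, 145.5 and 162.1 in heart, and 315.2, 320.5, 378.7 and 324.8 in kidney cells. Bone marrow and kidney arrays overlapped on both entries, and every heart array lay below all of them. Entry 1 was detected on 0 heart arrays and entry 2 on 2 of them. Hoxa9 was at least 5.24-fold lower in heart than in bone marrow cells on entry 1 (adjusted p = 2.29e-12) and 4.24-fold lower on entry 2 (adjusted p = 2.13e-09). Against heart cells, kidney cells were at least 4.48-fold higher on entry 1 (adjusted p = 1.15e-11) and 4.07-fold higher on entry 2 (adjusted p = 4.85e-09). Kidney minus bone marrow was -0.23 ± 0.17 (adjusted p = 0.318) and -0.06 ± 0.17 (adjusted p = 0.825), neither past the threshold. Entry 3 read 91.6 to 124.7 and was detected on 0 arrays.

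Hoxa10, which acts in the lumbar spine and the reproductive tract, had its highest signal in bone marrow cells. Entry 1 (identifier ILMN_2646967) read 164.5, 207.6, 200.2 and 225.1 in bone marrow, 135.8, 139.4, 126.0 and 117.6 in heart, and 144.7, 148.6, 173.7 and 195.6 in kidney cells. It was detected throughout bone marrow, on 0 heart arrays and on 2 kidney arrays, and raw kidney and bone marrow signals overlapped before normalization. The log2 means were 6.74 ± 0.17 (SD, n = 4) for bone marrow, 4.94 ± 0.11 for heart and 5.67 ± 0.45 for kidney cells. Hoxa10 was at least 2.2-fold lower in heart than in bone marrow cells (adjusted p = 2.12e-07) and 2.1-fold lower in kidney than in bone marrow cells (-1.07 ± 0.20, adjusted p = 0.000248). In kidney cells it was at least 1.05-fold higher than in heart cells (adjusted p = 0.00565). Entry 2 read 92.6 to 111.7 and was detected on 0 arrays. Hoxa11, which acts in the forearm, kidney and uterus, read 111.7 to 146.6 and was detected on 0 arrays, so no tissue difference can be given for it.

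**Figure D2:**
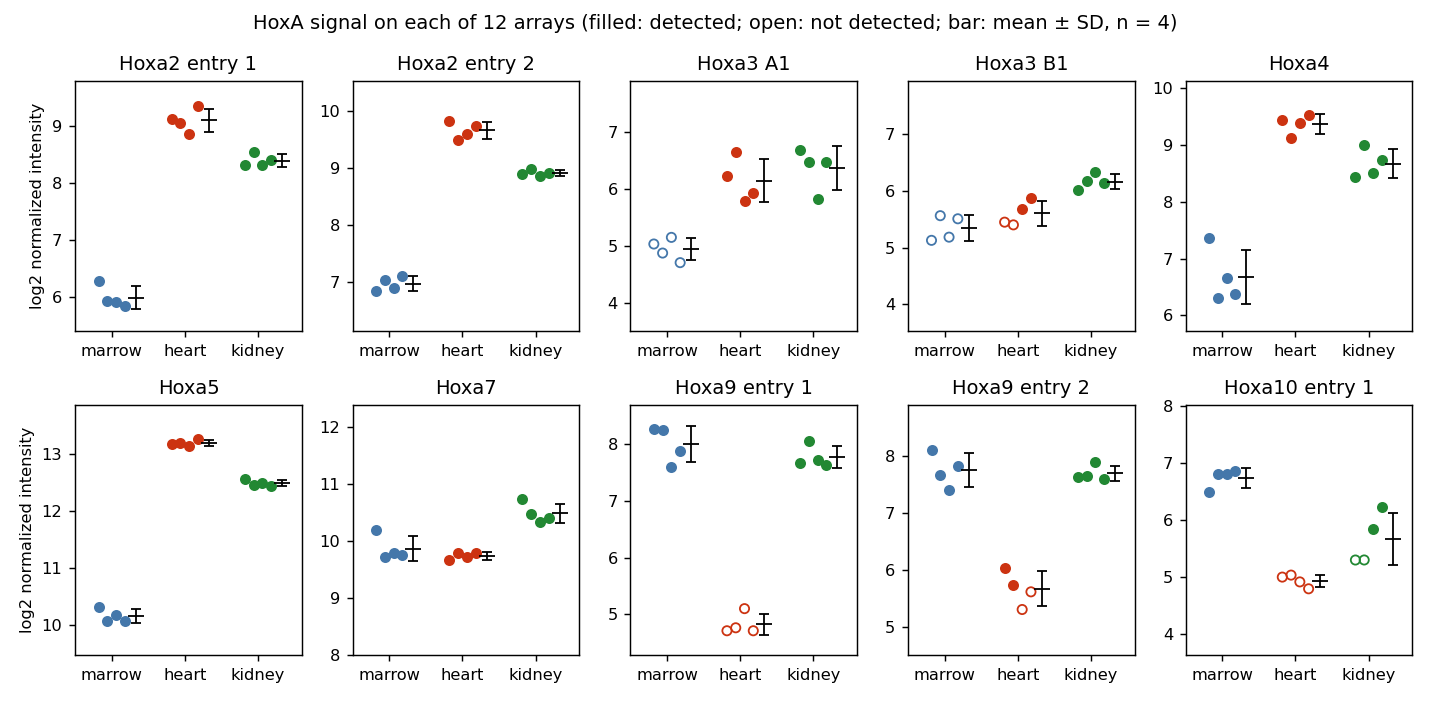
Log2 normalized intensity of the 10 tested HoxA entries on each array (1 point per array, filled where the entry was detected and open where it was not), with the mean and SD of the 4 arrays of each tissue beside the points. Each panel has its own y range, and A1 and B1 are entry 1 of the Hoxa3 identifiers ILMN_1237475 and ILMN_1255920. Heart is highest for Hoxa2, Hoxa4 and Hoxa5, kidney is highest for Hoxa7, and heart is lowest for Hoxa9 and Hoxa10.

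Heart cells against bone marrow cells split the cluster by position: the called genes at its start were higher and those at its end lower. Of the 10 tested entries, 5 were higher in heart cells (Hoxa2 on both entries, Hoxa3, Hoxa4 and Hoxa5), where 23.6% of all tested entries were. A further 3 were lower (Hoxa9 on both entries and Hoxa10), where 28% of all tested entries were, and 1 Hoxa3 entry and Hoxa7 did not pass. The 8 entries called in either direction (51.6% of all tested entries were) had no overlap between the tissues' arrays, as had 45.6% of all tested entries. A fitted difference of at least 2-fold was found for 8 of 10 entries (7 with bounds), against 12.3% of all tested entries. The median size of the difference, whatever its sign, was 2.39 over the 10 entries and 0.34 over all tested entries on the log2 scale. The signed median was 0.73 for the HoxA entries (0.37 with the 3 entries that have a bound set at it), against -0.04 over all tested entries. Without background correction the dim differences shrank, to 0.50 for Hoxa3, 1.93 for Hoxa2 entry 1, -1.59 and -1.03 for the Hoxa9 entries and -0.75 for Hoxa10, with each call kept. The authors' deposited values gave 2.01 for Hoxa3 and -2.76 for Hoxa10.

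Kidney cells against bone marrow cells gave a rise over the first part of the cluster that ran as far as Hoxa7, and a fall in Hoxa10 alone among the 7 tested genes. Of the 10 tested entries, 7 were higher in kidney cells (Hoxa2 on both entries, both tested Hoxa3 entries, Hoxa4, Hoxa5 and Hoxa7), where 18.4% of all tested entries were. Only 1 was lower (Hoxa10), where 20.8% of all tested entries were, and both Hoxa9 entries did not pass. The arrays of the 2 tissues did not overlap for the 8 entries called in either direction (39.2% of all tested entries were called), nor for 34.4% of all tested entries. The median difference was 1.12 for the HoxA entries (0.66 with the 2 bounded entries at their bound) and -0.02 over all tested entries, and 6 of 10 differed by at least 2-fold (5 with bounds), against 7.32% of all tested entries. Without background correction Hoxa2 entry 1 stood at 1.36, Hoxa3 at 0.60 and 0.31, Hoxa4 at 1.27 and Hoxa10 at -0.44, and with the authors' deposited values Hoxa3 stood at 2.3 and 1.24, with each call kept. This comparison shares the bone marrow arrays with the one before, so their values are set side by side and not correlated.

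Kidney cells against heart cells were lower for Hoxa2, Hoxa4 and Hoxa5 and higher for Hoxa7, Hoxa9 and Hoxa10, while Hoxa3, which lies between Hoxa2 and Hoxa4, was not lower on either tested entry. Of the 10 tested entries, 5 were higher in kidney cells (ILMN_1255920 of Hoxa3, Hoxa7, both Hoxa9 entries and Hoxa10), where 23.3% of all tested entries were. The 4 lower ones were Hoxa2 on both entries, Hoxa4 and Hoxa5, where 20.4% of all tested entries were lower, and Hoxa3 on ILMN_1237475 did not pass. No array of 1 tissue overlapped the other for the 9 entries called in either direction (43.8% of all tested entries were called), as for 42.6% of all tested entries. The 4 lower entries all fell by 0.70 to 0.75 on the log2 scale. The median difference was 0.39 for the HoxA entries (0.14 with the 2 bounded entries at their bound) and 0.04 over all tested entries, and only the 2 Hoxa9 entries exceeded 2-fold, against 9.45% of all tested entries. Without background correction Hoxa9 stood at 1.43 and 0.99, Hoxa10 at 0.31 and Hoxa3 on ILMN_1255920 at 0.21, and with the authors' deposited values Hoxa10 stood at 1.3, with each call kept.

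**Figure D3:**
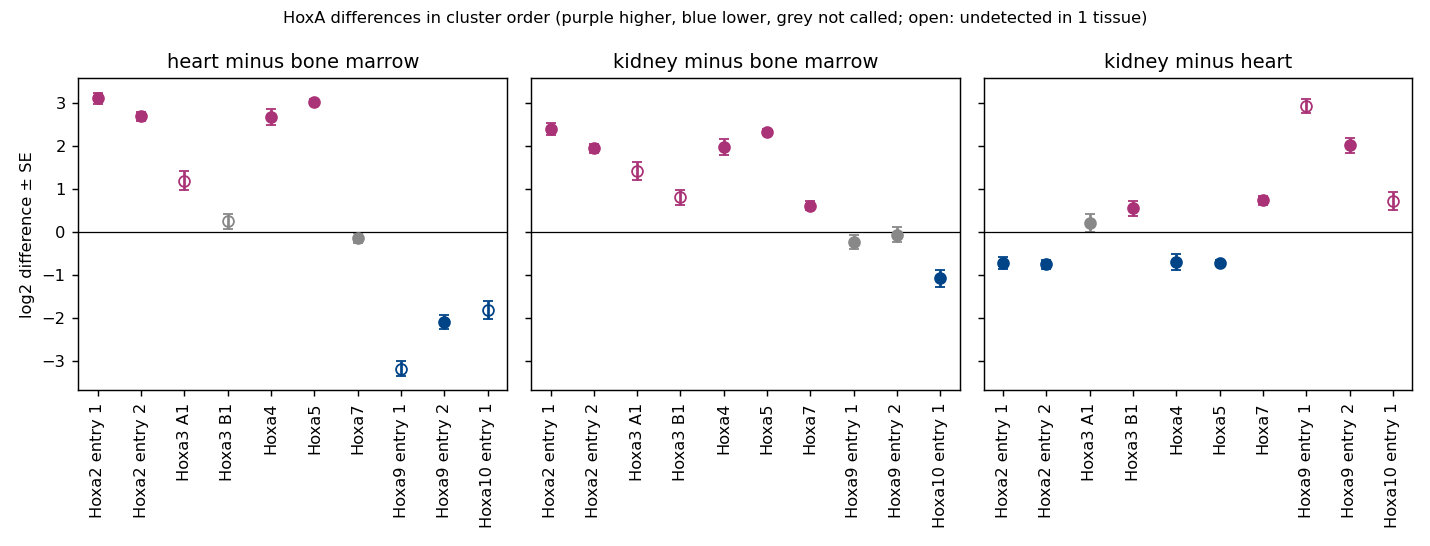
Log2 difference with its SE for the 10 tested HoxA entries, in cluster order along the x axis, in 1 panel per comparison. Purple points are called higher, blue points lower and grey points not called at an adjusted p under 0.05, and open points mark entries undetected on all 4 arrays of 1 of the 2 tissues. The difference plotted for an open point is the fitted one, which is not a bound: for Hoxa9 entry 1, undetected in heart cells, the bound is at least 5.24-fold. Heart minus bone marrow is above 0 for Hoxa2, Hoxa4 and Hoxa5 and below 0 for Hoxa9 and Hoxa10, kidney minus bone marrow stays above 0 as far as Hoxa7, and kidney minus heart is below 0 for Hoxa2, Hoxa4 and Hoxa5 and above 0 for Hoxa3 and from Hoxa7 on.

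The genes around the listed ones did not share 1 direction. Hoxa13, at the far end of the cluster, was dim in all tissues: 2 of its 3 entries were tested, read 141.7 to 210.7, and passed in no comparison. Hottip, the non-coding RNA beside Hoxa13, was detected on 1 heart array, and Evx1, the homeobox gene beyond it, on 1 bone marrow array. Hotairm1, Halr1 and Hoxa11os had no named entry. Skap2, an adaptor protein gene next to the start of the cluster, was higher in heart than in bone marrow cells by 0.78 ± 0.06 (adjusted p = 1.74e-09) and lower in kidney than in heart cells (-0.63 ± 0.06, adjusted p = 5.45e-08). The sorting nexin gene Snx10 was likewise higher in heart than in bone marrow cells (0.51 ± 0.08, adjusted p = 8.96e-06) and lower in kidney than in heart cells (-0.37 ± 0.08, adjusted p = 0.000386). Cbx3, a heterochromatin protein gene, was lower in heart and kidney than in bone marrow cells (-0.51 ± 0.07 and -0.41 ± 0.07, adjusted p = 3.05e-06 and 7.24e-05), and so was the RNA-binding protein gene Hnrnpa2b1 (-0.67 ± 0.08 and -0.53 ± 0.08, adjusted p = 4.73e-07 and 1.78e-05). On the other side, Hibadh, a valine breakdown enzyme gene, passed in no comparison. The autophagy receptor gene Tax1bp1 was higher in heart than in bone marrow cells by 0.42 ± 0.09 (adjusted p = 0.000417), and Jazf1, a zinc finger gene, was higher in heart (1.18 ± 0.17, adjusted p = 5.77e-06) and kidney cells (1.30 ± 0.17, adjusted p = 3.01e-06). Of the 8 tested neighbours, 4 were higher and 2 lower in heart than in bone marrow cells, where 26.2% and 29.4% of 10797 genes were. In kidney minus bone marrow 1 was higher and 2 lower, where 19.6% and 23.8% of genes were, and in kidney minus heart the 3 called neighbours were lower, where 24.5% of genes were higher and 23.9% lower.

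Among the DNA-binding cofactors of Hox proteins, Meis1 was the gene called with a difference of at least 2-fold. The test covered 8 cofactors. Meis1 read 1324 to 2152 for bone marrow, 6001 to 7752 for heart and 3890 to 4639 for kidney cells, so the tissues did not overlap. It was 3.41-fold higher in heart (1.77 ± 0.08, adjusted p = 5.76e-14) and 1.95-fold higher in kidney than in bone marrow cells (0.96 ± 0.08, adjusted p = 2.1e-09), and lower in kidney than in heart cells (-0.81 ± 0.08, adjusted p = 2.37e-08). That order, heart above kidney above bone marrow, is the order of Hoxa2, Hoxa4 and Hoxa5. Pbx2 was lower in heart (-0.91 ± 0.12, adjusted p = 2.78e-06) and kidney cells (-0.75 ± 0.12, adjusted p = 5.68e-05) than in bone marrow cells. Pbx3 was higher in heart than in bone marrow cells (0.44 ± 0.13, adjusted p = 0.00571) and lower in kidney than in heart cells (-0.66 ± 0.13, adjusted p = 0.000189). Pbx4 was dim and higher in heart than in bone marrow cells by 0.55 ± 0.22 (adjusted p = 0.0424), with overlapping arrays. Meis2 and Pknox1 were higher in kidney than in bone marrow cells (0.23 ± 0.08 and 0.33 ± 0.13, adjusted p = 0.0308 and 0.0438) and than in heart cells (0.41 ± 0.08 and 0.38 ± 0.13, adjusted p = 0.000341 and 0.0196). Meis3 and Pknox2 passed in no comparison. The smallest of these calls were lost with single arrays left out, at an adjusted p of up to 0.166 for Pbx4 (without bone marrow replicate 4), 0.102 for Meis2 against bone marrow (without bone marrow replicate 1), and 0.132 and 0.069 for Pknox1 against bone marrow and heart (both without kidney replicate 4). The cofactor list thus had 3 higher and 1 lower in heart minus bone marrow, 3 and 1 in kidney minus bone marrow, and 2 and 2 in kidney minus heart. Over all 10797 genes 26.2% were higher and 29.4% lower in heart minus bone marrow, 19.6% and 23.8% in kidney minus bone marrow, and 24.5% and 23.9% in kidney minus heart.

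**Figure D4:**
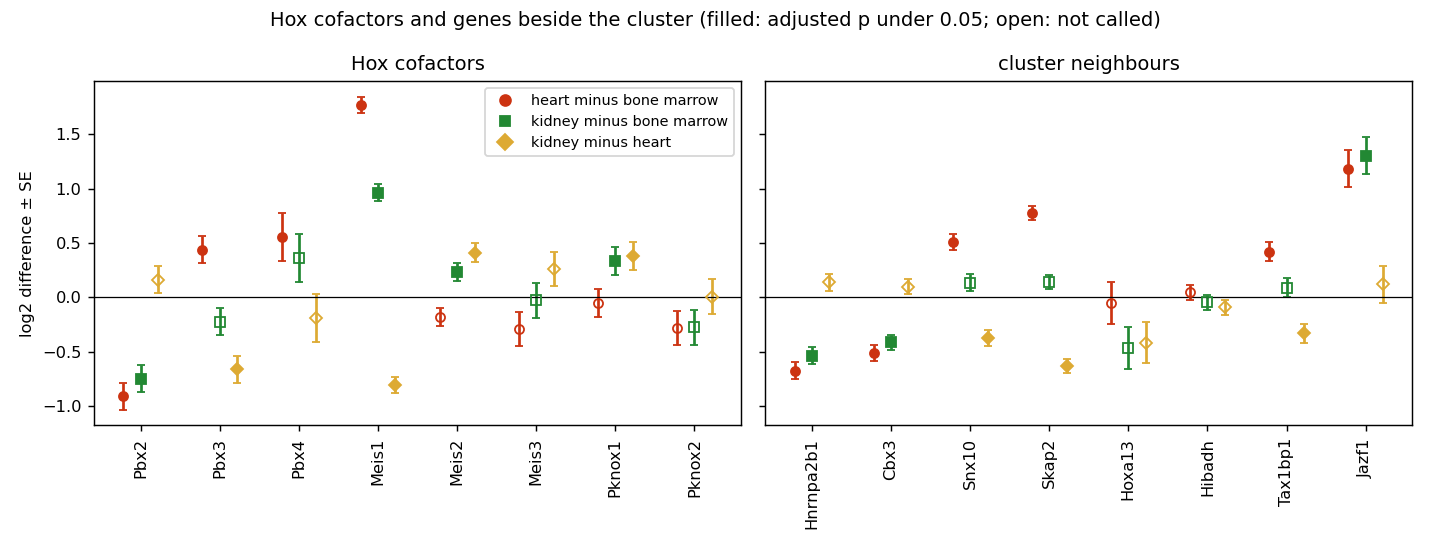
Log2 difference with its SE for the 8 tested Hox cofactors (left) and the 8 tested genes beside or at the end of the cluster (right), in 3 comparisons marked by colour and shape. Filled points have an adjusted p under 0.05 and open points do not. Meis1 and Jazf1 are the genes with differences of over 1 on the log2 scale.

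Trithorax and polycomb proteins keep Hox genes on or off. Of a list of 28 genes, mostly trithorax and polycomb genes, 23 were tested. The list also holds Ctcf and Rad21, which are neither, and Ctcf was among the lower calls in both comparisons with bone marrow. In heart minus bone marrow 1 was higher and 14 were lower, where 26.2% and 29.4% of all genes were. The median was -0.39 against -0.03 over all genes. In kidney minus bone marrow 3 were higher and 10 lower, where 19.6% and 23.8% of all genes were (median -0.26 against -0.04), and in kidney minus heart 9 were higher and 3 lower, where 24.5% and 23.9% were (median 0.12 against 0.02). Of the 23, only Cbx2, a polycomb subunit gene, was called with at least a 2-fold difference, at -1.24 ± 0.17 in heart minus bone marrow (adjusted p = 2.54e-06). Several of these calls were close to the threshold: without kidney replicate 4, 4 of the 10 lower calls in kidney minus bone marrow were lost, and the 1 higher call in heart minus bone marrow, Eed, was lost without bone marrow replicate 3 (adjusted p = 0.116) or heart replicate 3.

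Of 12 regulators that act upstream of Hox genes in the embryo, 6 were tested. The retinoic acid receptor gene Rarb read 236.3 to 376.2 for bone marrow, 156.9 to 179.4 for heart and 291.9 to 329.2 for kidney cells. It was lower in heart than in bone marrow cells (-2.12 ± 0.16, adjusted p = 4.16e-10) and higher in kidney than in heart cells (1.75 ± 0.16, adjusted p = 1.11e-08), and bone marrow and kidney arrays overlapped, as they did for Hoxa9. Egr2, a hindbrain regulator gene, had the same order, at -1.59 ± 0.14 (adjusted p = 5.21e-09) and 1.41 ± 0.14 (adjusted p = 4.87e-08). Rarg was lower in kidney than in heart cells (-0.42 ± 0.11, adjusted p = 0.00505). In kidney minus bone marrow the adjusted p of the 6 tested genes was 0.0697 or more. Cdx2, Cdx4 and Gmnn were detected on 0 arrays, and the tested Cdx1, Cyp26b1 and Rara passed in no comparison.

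Genes of the same paralogue groups in the HoxB, HoxC and HoxD clusters, which encode the proteins most alike to each HoxA protein, did not all follow their HoxA member. The list has 18 genes, of which 13 were tested. In heart minus bone marrow 6 were higher and 4 lower, in kidney minus bone marrow 12 and 1, and in kidney minus heart 8 and 2. The shares over all genes are given above. Among the 13, Hoxb9, Hoxd9 and Hoxd10 passed the detection filter through kidney arrays alone, and Hoxc11 through bone marrow arrays alone. The direction of their calls against those tissues is therefore not independent of the filter, and the counts include them. Hoxc11 is the 1 lower call in kidney minus bone marrow. Beside Hoxa2, Hoxb2 read 134.4 to 146.3 in bone marrow cells, where it was detected on 1 of 4 arrays, against 1045 to 1362 in heart and 1276 to 1659 in kidney cells. It was higher in both organs (adjusted p = 4.89e-16 and 4.87e-16), with the size of the difference uncertain because the bone marrow level is mostly not above background, and unlike Hoxa2 it was not called between kidney and heart cells (0.20 ± 0.15, adjusted p = 0.282). Beside Hoxa3, Hoxb3 was detected on 1 of 4 bone marrow arrays and on all heart and kidney arrays, was higher in heart and kidney than in bone marrow cells (adjusted p = 2.3e-06 and 0.00986) and, unlike either tested Hoxa3 entry, was lower in kidney than in heart cells (-0.95 ± 0.23, adjusted p = 0.00227). The Hoxb3 arrays of kidney and bone marrow overlapped, and that call reached an adjusted p of 0.0475 with an array left out. The sizes against bone marrow are uncertain, as for Hoxb2. Beside Hoxa4, Hoxb4 was at least 21.3-fold higher in heart and at least 10.2-fold higher in kidney than in bone marrow cells (adjusted p = 3.18e-16 and 2.45e-14), and 2.08-fold lower in kidney than in heart cells (adjusted p = 6.89e-06), the order of Hoxa4. Hoxb5 was detected on 2 of 4 bone marrow arrays (145.9 to 204.7) and, like Hoxa5, was higher in heart (1154 to 1287, adjusted p = 1.37e-12) and kidney cells (957.2 to 1004, adjusted p = 1.48e-11). Unlike Hoxa5, it was not called between kidney and heart cells (-0.40 ± 0.20, adjusted p = 0.128). Beside the Hoxa6 entry, which was detected on 1 array, Hoxb6 was at least 3.76-fold higher in heart and at least 7.69-fold higher in kidney than in bone marrow cells (adjusted p = 2.23e-12 and 1.9e-14). Hoxc6 was 8.13-fold lower in heart and 8.16-fold higher in kidney than in bone marrow cells (adjusted p = 3.43e-15 and 6.2e-15). Beside Hoxa7, which was not called in heart minus bone marrow, Hoxb7 was higher by 4.09 ± 0.10 (adjusted p = 1.35e-17). Beside Hoxa9, Hoxc9 was also low in heart cells, at least 50-fold lower than in bone marrow cells (adjusted p = 1.58e-20) and at least 87.7-fold below kidney cells (adjusted p = 1.44e-21), and in kidney cells it was 1.76-fold above bone marrow cells (adjusted p = 1.45e-06). Hoxb9 and Hoxd9 were detected in kidney cells and on 0 arrays of the other tissues, at least 3.45-fold and at least 1.84-fold above bone marrow cells (adjusted p = 4.87e-10 and 6.24e-06). Beside Hoxa10, which was lower in kidney than in bone marrow cells, Hoxc10 was 1.7-fold higher (adjusted p = 4.12e-05) and Hoxd10 at least 4.46-fold higher (adjusted p = 3.35e-12). In the other comparisons Hoxc10 had the directions of Hoxa10. On its brightest entry it was at least 14-fold lower in heart than in bone marrow cells (adjusted p = 1.73e-17). Kidney cells were at least 23.9-fold above heart cells (adjusted p = 2.5e-18). Another Hoxc10 entry was detected on 3 heart arrays. Hoxc11, a paralogue of the undetected Hoxa11, was detected on the 4 bone marrow arrays and no other, at least 1.46-fold above both other tissues (adjusted p = 5.48e-05 against heart and 0.000604 against kidney).

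The 2 non-Hox genes closest in pattern to each tested HoxA gene were taken by Pearson correlation over the 12 arrays, among 2105 named genes whose tissue means spanned at least 1 on the log2 scale. These correlations are a description, since the arrays fall into 3 tissues and the points share those tissue levels. For Hoxa2 they were Tnik, a kinase gene (0.9944), and Map10, a microtubule protein gene (0.9943). Hoxa4 had Arhgdib (0.9912), and Pvr, an adhesion receptor gene (0.9875). Creld1 and the skeletal muscle actin gene Acta1 were closest to Hoxa5 (both 0.9969). The Acta1 log2 mean was 8.04 for bone marrow, 12.83 for heart and 11.94 for kidney cells. Hoxa3 had Gng2 (0.9484) and Akr1c13 (0.9479), on its brightest tested entry. Closest to Hoxa7 were Vmn2r78 (0.9824) and Get1 (0.9702). Hoxa9 had Tex30 (0.9881) and Nrep (0.9817), and the Nrep log2 mean was 12.40 for bone marrow, 8.74 for heart and 12.17 for kidney cells. Hoxa10 had Bnc1, an epithelial and germ cell zinc finger gene (0.967), and Pde2a, a cyclic nucleotide phosphodiesterase gene (0.9648).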

How the data were processed

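Single-colour Illumina bead arrays measured RNA from 12 samples, 4 per tissue, grouped by the labels' tissue of origin. The deposited raw table holds, per the file headers, non-normalized intensity (lowest value 72.3, array medians 129.8 to 149). The detection fraction deposited with it rises with signal, so a detection p was taken as 1 minus that fraction. The authors' own processed intensity, deposited for 35739 identifiers with array medians of 18.8 to 19, was used as an alternative only. What was subtracted to make it is unknown, and it holds the first entry of repeated identifiers. The submitters' processing notes name lumi, and neither its version nor a genome build is given in the sources used here. Gene names came from the platform annotation (26385 identifiers with 1 symbol, 18 with several, 9343 not listed). Cluster order and promoters came from RefSeq GRCm38.p6.

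Raw intensities were corrected and quantile normalized with neqc (limma 3.58.1, R 4.3.3, offset 16) and put on the log2 scale. Entries detected above 0.95 on at least 4 arrays were kept (20649, each tested separately). A mean per tissue was fitted over all 12 arrays with lmFit and eBayes (trend), with two-sided Benjamini-Hochberg adjusted p-values over all kept entries and a threshold of 0.05. For other genes the brightest kept entry was used (10797 genes). The fit was checked on simulated data. The number of arrays limits the precision.

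The HoxA members and the lists of cofactors, chromatin and upstream regulators, neighbours, paralogues and markers were chosen with earlier results of these data known. Named were all HoxA entries, the 2 closest genes per tested member, the tested cofactors, the neighbours, regulators called with at least a 2-fold difference, and paralogues beside their member. Rarg, Cdx1, Cdx2, Cdx4, Cyp26b1, Gmnn and Rara lie outside that rule and were named after their values were seen, as were Rarb, Egr2, Eed and the markers.

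Alternatives were no background correction, the authors' values, other detection filters, the brightest entry per gene, no trend, a replicate block and leaving out each array. Proteins and probe sequences were not used here.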

Additional observations from a re-analysis of the deposited data

Results flagged for a closer look

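In 3 of 30 sets of 4 arrays of 1 tissue, an array stood apart from the other 3 by Dixon's ratio of its gap to the whole range beyond its 95% critical value. The ratio was 0.863 for Hoxa7 in bone marrow replicate 1, which at 10.19 on the log2 scale was the highest of its tissue, with the next at 9.79. For Hoxa10 entry 1 the same array was the lowest, at 6.49 with the next at 6.80 (ratio 0.831), and it is also the array with the lowest mean raw signal. The ratio was 0.866 for Hoxa9 entry 1 in heart replicate 3, at 5.10 with the next at 4.76, where the entry was undetected on all heart arrays. Chance alone gives such a ratio in about 1 of 20 sets, and the cause was not tested.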

How the results depend on the processing

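All 180 differences of the 10 tested HoxA entries recomputed under other settings kept their direction and their side of the threshold. So did 359 of 360 with an array left out. The exception, Hoxa9 entry 2 in kidney minus bone marrow, was not called in any case: it was -0.06 over all arrays (adjusted p = 0.825), ranged from -0.174 to 0.059 with an array left out, and was above 0 without bone marrow replicate 1 (adjusted p = 0.821). Leaving out any array kept the counts of HoxA entries at 5 higher and 3 lower for heart minus bone marrow, 5 higher and 4 lower for kidney minus heart, 7 higher and 1 lower for kidney minus bone marrow, and 10 in the F test. With entries detected on all 12 arrays only, 5 HoxA entries remained to be tested, so 0 were lower in heart minus bone marrow, 0 lower in kidney minus bone marrow, 1 was higher in kidney minus heart and 5 passed the F test. Without the detection filter 16 HoxA entries were tested, of which 4 were lower in heart minus bone marrow and 11 passed the F test. The additional calls came from entries outside the main test. With the brightest entry per gene, 3 were higher in kidney minus heart. The size of dim differences depends on the background: without background correction 14 of 25 called differences shrank by over 1.5 times, and with the authors' deposited values 5 of 20 grew by over 1.5 times, up to 1.77 times. A fit with the replicate block called 10550 of all entries for heart minus bone marrow (10647 without it), 8952 for kidney minus heart (9036) and 8019 for kidney minus bone marrow (8092), and changed no HoxA call. Deviations of same-numbered arrays correlated at -0.18 to 0.12, with 1 of 12 pairs above 0.1. Those of different-numbered arrays correlated at -0.179 to 0.161, with 5 of 36 pairs above 0.1. The numbers were therefore not taken to pair the samples, though these values cannot show whether same-numbered samples came from the same animal. The slide as a block was not run, because the headers name no slides. Entries undetected in a tissue have only a bound there, which limits the Hoxa3, Hoxa9 and Hoxa10 folds.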
